A study of Mus musculus with 16 samples.

Results

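The tripartite motif (TRIM) ubiquitin ligase family was taken here as every gene with a symbol made of Trim, a number and at most lower-case letters. Of 68 such genes among the 55359 counted, 42 reached at least 1 CPM, the usual unit of counts scaled to library size, in 4 or more of 16 RNA-seq libraries, and these 42 are described. The libraries came from the wild-type line MPI-2, mouse macrophages that resemble those of the alveoli and are grown with GM-CSF, a cytokine needed for their growth. Uninfected day 1, exposed day 1, uninfected day 5 and exposed day 5 made up the 4 groups, where exposed cells had met Mycobacterium abscessus, a nontuberculous mycobacterium that can live inside macrophages. Each group held 4 replicates, labelled as biological and all from a single wild-type line, so that p-values measure the spread between cultures of that line.

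A TRIM protein usually carries a RING domain that brings a ubiquitin-charged E2 enzyme to a target, one or more B-boxes, and a coiled coil through which the proteins pair. The C-terminal part differs between classes and selects targets, most often through a PRY-SPRY domain, and otherwise through NHL repeats, a PHD finger with a bromodomain, a COS box or a membrane anchor. In macrophages the family is best known for tuning nucleic acid sensing and cytokine signalling, for restricting viruses, and for marking damaged or invaded vesicles for autophagy, and several members are textbook interferon-induced genes.

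Library totals lay between 46154875 and 81995629 counts. All 6 macrophage and all 6 alveolar macrophage markers examined had group means of at least 1 CPM, although Siglecf, a defining surface lectin of alveolar macrophages, stayed between 4.29 and 9.87 CPM. Of 13 markers of epithelium, fibroblasts, endothelium, T, B and NK cells, 3 reached a mean of 1 CPM in each group. These were Pdgfra, Pecam1 and Scgb1a1, with Cdh5 in place of Scgb1a1 in exposed day 5 cells. Col1a2 and Cd3g were at 0 in every library, and Epcam, Sftpc, Cd3e and Ncr1 had at most 6 counts each over all libraries. The summed level of those 13 markers was 22.3 to 25.4 CPM in uninfected day 1, 22.04 to 23.6 CPM in exposed day 1, 25.7 to 28.5 CPM in uninfected day 5 and 16.3 to 20.9 CPM in exposed day 5 libraries. The macrophage markers went different ways with exposure. Of the 6 alveolar ones, the group means at day 5 were lower in exposed than in uninfected cells for Chil3 (2989 against 16119 CPM) and Pparg (185 against 383 CPM), and higher for Itgax (927 against 193 CPM), Car4 (1988 against 1623 CPM), Marco (2354 against 2273 CPM) and Siglecf (8.17 against 7.18 CPM). Chil3 had the highest mean of the 6 in every group, and their sum ran from 13702 to 15250 CPM in uninfected day 1, 8662 to 11230 CPM in exposed day 1, 17002 to 24225 CPM in uninfected day 5 and 7194 to 9333 CPM in exposed day 5 libraries. The sum of the 6 general macrophage markers, most of it Lyz2, was 2907 to 3185, 4944 to 5754, 3219 to 3707 and 7039 to 12571 CPM in the same order, while Cd68 and Adgre1 had lower means in exposed than in uninfected day 1 cells. Their part in the results below was not tested, and in such bulk libraries fewer cells with a transcript and less of it per cell cannot be told apart. The library codes of exposed day 5 replicates 2 and 3 are of another series than those of the other libraries, and what the codes stand for is not given in the sources used here. Without these replicates 22 members were higher and 7 lower at day 5, against 21 and 7 with them.

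Membership depended on exposure for 4 genes. Trim30b, Trim30c, Trim30d and Trim69 passed only through exposed libraries, while the other 38 members also reached 1 CPM in at least 4 of the 8 uninfected libraries. Closest to the threshold from inside was Trim69, at 1 CPM or more in 5 libraries, and closest from outside was Trim40, which reached it in 3 libraries with a highest level of 1.15 CPM. None of the other 25 family genes outside reached 1 CPM in any library. All 42 members were among the 17190 genes tested.

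At day 1, 19 of the 42 members were higher and 4 lower in exposed than in uninfected cells by edgeR's quasi-likelihood test at a Benjamini-Hochberg adjusted p under 0.05, against 13.4% of all genes tested higher and 10.5% lower. By day 5 the counts were 21 higher and 7 lower, where 28.6% of all genes were higher and 28.4% lower. At least 2-fold higher were 9 members at day 1 (4.45% of all genes) and 15 at day 5 (13.6% of all genes). At least 2-fold lower were 0 members at day 1 (0.576% of all genes), where the lowest log2 fold change was -0.51, and 3 at day 5 (9.33% of all genes). The genes Trim30b, Trim30c, Trim30d and Trim69 had to be higher to enter. Over the other 38 members, 15 were higher and 4 lower at day 1, 5 of them at least 2-fold higher, and 17 were higher and 7 lower at day 5, 11 of them at least 2-fold higher. The median log2 fold change of the 42 members was 0.27 at day 1 and 0.26 at day 5. Over the 38 members it was 0.21 and 0.20, and over all genes tested 0.03 and 0.02.

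The 2 days had 14 members higher in common and 3 lower in common. A further 11 passed the test at day 5 and not at day 1, 6 at day 1 and not at day 5, and 8 at neither, and 0 were called in opposite directions. Over the 38 members that pass on uninfected libraries alone, 10 were higher in common and 3 lower in common. Shares of all genes tested in these classes were not counted. The summed level of all members was 1391 ± 33.3 CPM (SD, n = 4) in uninfected day 1, 1714 ± 95.9 in exposed day 1, 1437 ± 29.1 in uninfected day 5 and 2480 ± 306 in exposed day 5 cells. These sums include the genes that entered through exposed libraries alone. In the heatmap of all members by library the top rows, led by the Trim30 genes, are high in all 8 exposed libraries, and a short block at the bottom is low in exposed day 5 libraries.

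**Figure D1:**
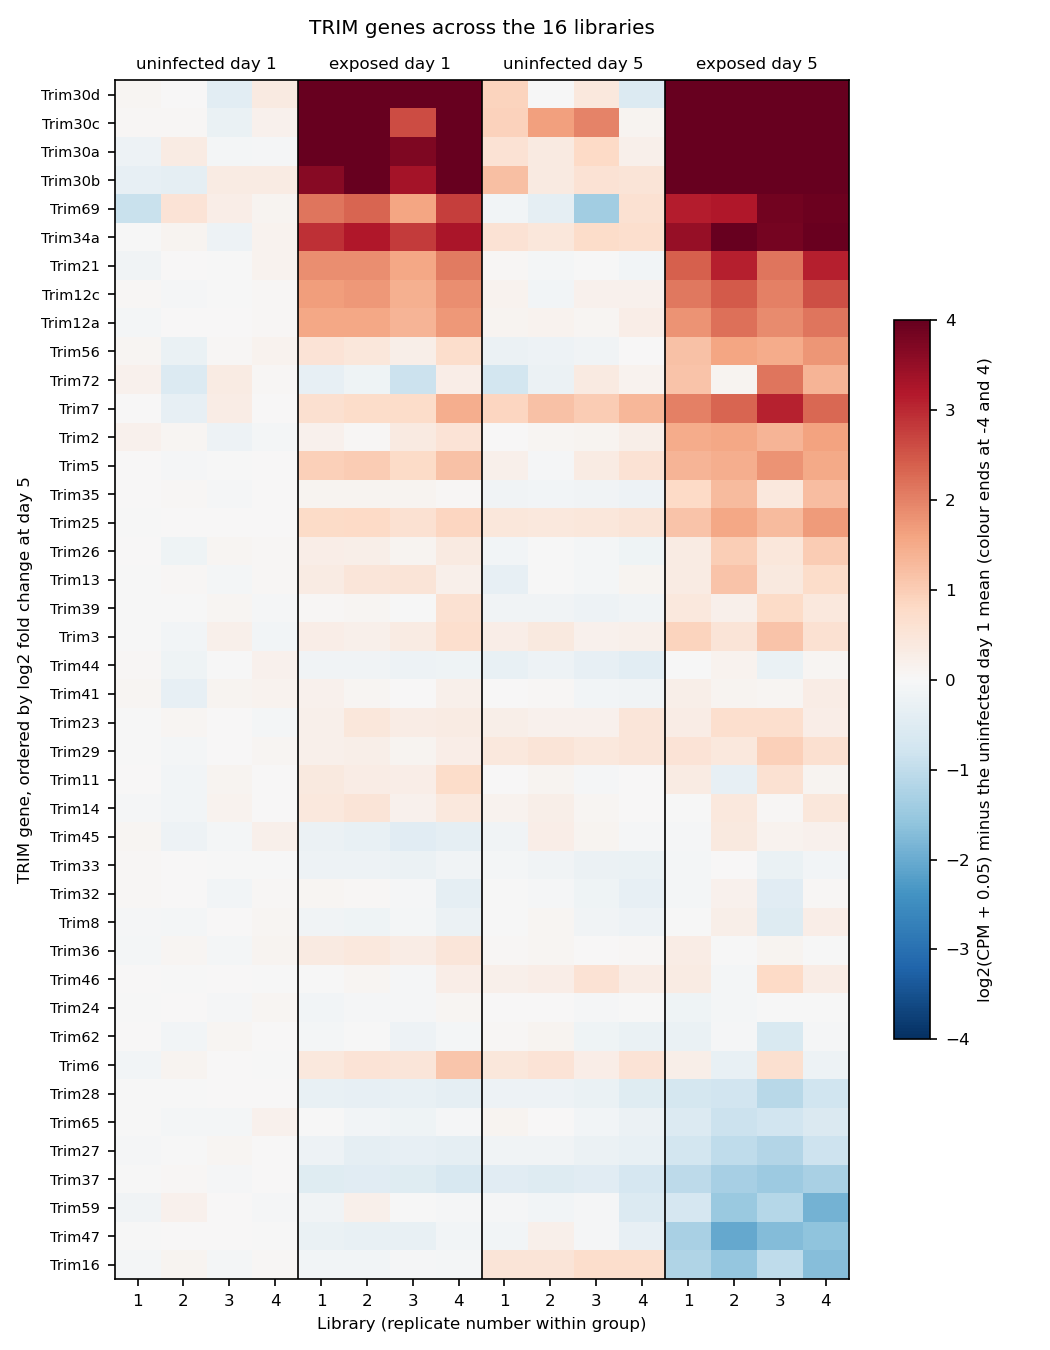
Level of each of the 42 TRIM genes (rows, ordered by log2 fold change at day 5) in each of the 16 libraries (columns, by group and replicate), as log2(CPM + 0.05) minus the gene's mean in uninfected day 1 cells, with colours that end 4 log2 units above and below that mean. Trim30d, Trim30c, Trim30a and Trim30b head the order, and Trim59, Trim47 and Trim16 close it.

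The largest log2 fold changes at both days were those of the Trim30 genes, which lie in 1 stretch of chromosome 7. In the RefSeq gene order, 10 TRIM genes lie together there between the olfactory receptor genes Olfr649 and Olfr651: Trim6, Trim34a, Trim5, Trim12a, Trim34b, Trim12c, Trim30b, Trim30c, Trim30a and Trim30d. Trim5, Trim12a and Trim12c are the mouse relatives of primate TRIM5alpha, the retrovirus restriction factor, and Trim30a is known as a brake on Toll-like receptor signalling that promotes loss of Tab2 and Tab3. Of the 9 members from this cluster, Trim30b, Trim30c and Trim30d entered through exposed libraries alone. The other 6 were all higher in exposed cells at day 1 (13.4% of all genes), and 5 of the 6 at day 5 (28.6% of all genes). The median log2 fold change of these 6 was 1.62 at day 1 and 2.05 at day 5. The tenth gene, Trim34b, reached at most 0.343 CPM. Outside the cluster, Trim69, which also entered through exposed libraries alone, and Trim21 had log2 fold changes of 4.28 and 2.81 at day 5. These were larger than those of Trim12c (2.22), Trim12a (1.88) and Trim5 (1.27) within it.

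Since the cluster members other than Trim6 were higher at both days, promoters were read for the core of the interferon-stimulated response element. This motif is bound by interferon-activated transcription factors. The motif searched was GAAANNGAAA, or TTTCNNTTTC on the other strand, in RefSeq windows of mouse build GRCm38.p6 that run from 250 bases before to 50 bases after a transcription start. It was present in 3.44% of all 32851 windows of this length and in 3.99% of the 27025 genes with a window. Among members it was found in 9 of the 32 with a window (28.1%), in 7 of the 13 of these that were higher at both days (53.8%), in 2 of the other 19 (10.5%), and in 6 of the 9 cluster members. Without the 4 genes that entered through exposed libraries alone, 6 of 9 members higher at both days held it. Of the 7 members higher at both days that held it, all but Trim21 lie in the cluster. Several of these neighbours share a near-identical stretch, so they are not separate observations. Outside the cluster, Trim25, Trim56, Trim7 and Trim69 were higher at both days without the motif. The other motif searched, the core TTCNNNGAA of the gamma-activated site, was present in 8.30% of all windows. By gene it was present in 9.55% of all genes with a window and in 3 of the 32 members (9.38%). A match describes letters in a window and is neither a bound site nor a cause.

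The stretches below run 5′ to 3′ along the strand of each gene and show the motif letters with 20 bases on either side. They are given because they show which neighbours share a promoter stretch, and capitals mark the motif letters or, for Trim30c, the letters at the same place.
Trim30a, chr7:104465200-104465249, minus strand: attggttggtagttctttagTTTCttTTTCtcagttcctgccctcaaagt
Trim30c, chr7:104400886-104400935, minus strand: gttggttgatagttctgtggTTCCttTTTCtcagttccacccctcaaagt
Trim5, chr7:104288126-104288175, minus strand: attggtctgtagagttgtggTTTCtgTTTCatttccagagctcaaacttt
Trim12c, chr7:104353349-104353398, minus strand: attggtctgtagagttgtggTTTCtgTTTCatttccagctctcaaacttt
Trim26, chr17:36836966-36837021, plus strand: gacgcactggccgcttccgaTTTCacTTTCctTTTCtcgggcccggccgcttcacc
The Trim30a stretch is shared letter for letter with Trim30d, at chr7:104507861-104507910 on the same strand. Trim30c holds no full match: its most similar stretch differs from that of Trim30a at 7 of 50 positions, 1 of them within the motif. The nearest stretch in the Trim30b window differs at 30 of 50 positions. Trim5 and Trim12a (chr7:104315456-104315505) share 1 identical stretch, and in Trim12a its motif begins 11 bases after the start. From this stretch Trim12c differs at 2 of 50 positions, none of them within the motif. In Trim26, outside the cluster on chromosome 17, 2 matches overlap. Further matches lay just past the start, as GAAActGAAAgtGAAA from base 14 in Trim21, where 2 matches overlap, as TTTCagTTTC from base 11 in Trim34a and as TTTCctTTTC from base 29 in Trim2. The match in Trim2 lay in 1 of its several windows, and the windows of Trim6, Trim25, Trim56, Trim7 and Trim69 held none.

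Trim30a was the most abundant Trim30 gene. Its levels in replicates 1 to 4 were 3.15, 4.54, 3.42 and 3.51 CPM in uninfected and 67.8, 77.4, 49.1 and 78.9 CPM in exposed day 1 cells. At day 5 they were 5.42, 4.64, 6.26 and 4.17 CPM in uninfected and 229.7, 381, 241 and 372 CPM in exposed cells. Every exposed library stood far above every uninfected one, and all 4 exposed day 5 libraries above those of day 1. The fitted log2 fold change was 4.22 ± 0.22 (SE; edgeR adjusted p = 4.14e-10) at day 1 and 5.90 ± 0.23 (edgeR adjusted p = 2.24e-12) at day 5, which is 18.6-fold and 59.6-fold. The effect was larger at day 5 by 1.68 ± 0.28 on the log2 scale (edgeR adjusted p = 0.000201).

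Trim30d, a close relative of Trim30a, started lower and rose further. It had 0.377, 0.360, 0.253 and 0.470 CPM in uninfected and 14.7, 15.9, 10.5 and 18.0 CPM in exposed day 1 replicates. The day 5 values were 0.698, 0.357, 0.495 and 0.230 CPM in uninfected and 93.7, 145, 113 and 171 CPM in exposed replicates. The groups did not overlap at either day, in a gene that entered through exposed libraries alone. Its log2 fold change of 5.33 ± 0.29 (edgeR adjusted p = 1.12e-09) at day 1 and 8.16 ± 0.29 (edgeR adjusted p = 1.34e-12) at day 5 differed between days by 2.83 ± 0.44 (edgeR adjusted p = 0.000136). From the counts alone, 4028 against 99 at day 1 and 32960 against 132 at day 5, the ratios were 39.8 (95% exact interval 32.6 to 49.1) and 281 (237 to 336), where such intervals cover counting error only.

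Trim30b and Trim30c were close to silent without exposure. Both entered through exposed libraries alone, so a higher level there was a condition of entry. Trim30b stood at 0.0377, 0.0373, 0.0904 and 0.0904 CPM in uninfected and 1.32, 1.85, 1.06 and 2.14 CPM in exposed day 1 replicates, and at 0.203, 0.0931, 0.114 and 0.107 CPM in uninfected and 5.41, 7.29, 9.14 and 9.93 CPM in exposed day 5 replicates. Exposed and uninfected libraries were fully apart. On the log2 scale the change was 4.68 ± 0.36 (edgeR adjusted p = 1.96e-08) at day 1 and 5.90 ± 0.31 (edgeR adjusted p = 1.38e-11) at day 5. Trim30c had 0.0126, 0.0124, 0 and 0.0181 CPM in uninfected and 1.21, 1.61, 0.321 and 1.25 CPM in exposed day 1 replicates. At day 5 its levels were 0.0635, 0.140, 0.190 and 0.0153 CPM in uninfected and 5.82, 22.8, 6.55 and 30.4 CPM in exposed replicates. Replicates 2 and 4 of exposed day 5 were several times above replicates 1 and 3 for this gene, yet all 4 exceeded every uninfected library. With 306 counts against 3 at day 1, the ratio was 99.9 with a 95% exact interval of 33.9 to 487, and with 4107 against 30 at day 5 it was 154 (108 to 229). Both tests passed for Trim30c (edgeR adjusted p = 0.000566 and 1.68e-07), and the interaction was 1.21 ± 0.58 for Trim30b (edgeR adjusted p = 0.114) and 0.86 ± 3.15 for Trim30c (edgeR adjusted p = 0.861). Together the 4 Trim30 genes summed to 4.09 ± 0.607 CPM in uninfected day 1, 85.8 ± 17.8 in exposed day 1, 5.80 ± 1.14 in uninfected day 5 and 461 ± 127 in exposed day 5 cells (SD, n = 4).

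**Figure D2:**
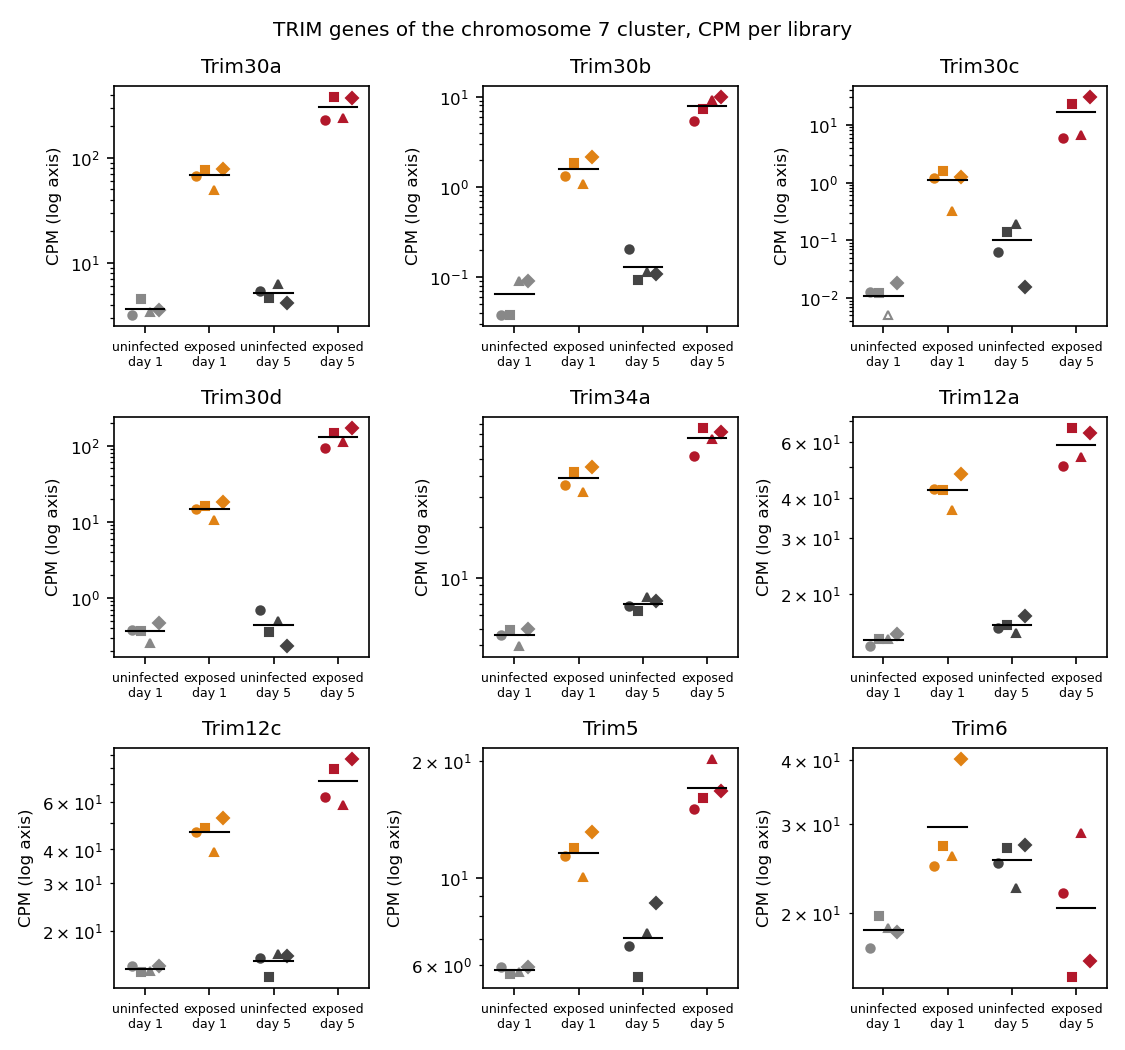
CPM of 9 TRIM genes of the chromosome 7 cluster in each library on log axes, 1 panel per gene, with the 4 groups along the horizontal axis, symbols for replicates 1 to 4 (circle, square, triangle, diamond) and bars for group means; an open symbol marks a count of 0, drawn at 0.005 CPM. Exposed libraries of both days lie above all uninfected ones in 8 panels, and in the Trim6 panel exposed day 5 overlaps uninfected day 5. Trim30b, Trim30c and Trim30d entered through exposed libraries alone, and how many of all genes separate in this way was not counted.

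Trim34a, a PRY-SPRY relative of human TRIM34, followed the Trim30 genes within the cluster. It had 4.56, 4.90, 3.93 and 4.99 CPM in uninfected and 35.1, 42.2, 32.2 and 44.8 CPM in exposed day 1 replicates, and 6.82, 6.33, 7.66 and 7.29 CPM in uninfected and 52.0, 76.4, 65.9 and 71.8 CPM in exposed day 5 replicates. All exposed libraries lay above all uninfected ones. Exposure changed it by a log2 fold change of 3.07 ± 0.13 (edgeR adjusted p = 8.85e-12) at day 1 and 3.24 ± 0.13 (edgeR adjusted p = 4.86e-13) at day 5. Uninfected cells also had more of it at day 5 than at day 1, by 0.61 ± 0.13 (edgeR adjusted p = 0.00258), and the interaction was 0.18 ± 0.17 (edgeR adjusted p = 0.465). Of the 50-base words in its transcripts, 39.8% also occur in Trim34b, so reads of the pair may not be separated.

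Of the relatives of TRIM5alpha, Trim12c had 14.8, 14.05, 14.1 and 14.8 CPM in uninfected and 46.4, 47.9, 39.0 and 52.2 CPM in exposed day 1 replicates. Its day 5 levels were 15.9, 13.4, 16.4 and 16.1 CPM in uninfected and 62.5, 79.8, 58.5 and 86.7 CPM in exposed replicates. Uninfected libraries were tightly grouped at both days, and exposed ones stood above them without overlap. The change was 1.68 ± 0.12 on the log2 scale (edgeR adjusted p = 4.46e-09) at day 1 and 2.22 ± 0.12 (edgeR adjusted p = 1.4e-11) at day 5, and it was larger at day 5 by 0.53 ± 0.16 (edgeR adjusted p = 0.0144). Trim12a showed 13.7, 14.5, 14.5 and 14.99 CPM in uninfected and 42.6, 42.5, 36.7 and 47.7 CPM in exposed day 1 replicates. For day 5 the values were 15.7, 16.01, 15.1 and 17.2 CPM in uninfected and 50.6, 66.4, 54.0 and 63.9 CPM in exposed replicates. In CPM, the Trim12a levels were close to those of Trim12c in uninfected cells. Per kilobase of exon Trim12a was lower, at 2.49 against 3.86 CPM in uninfected day 1 and 2.77 against 4.13 CPM in uninfected day 5 cells. The log2 fold change was 1.56 ± 0.09 (edgeR adjusted p = 5.91e-10) at day 1 and 1.88 ± 0.10 (edgeR adjusted p = 6.66e-12) at day 5. Its interaction of 0.32 ± 0.13 missed the threshold (edgeR adjusted p = 0.0631) and passed without exposed day 1 replicate 4 (0.38), exposed day 5 replicate 1 (0.39) or exposed day 5 replicate 3 (0.36), and with DESeq2 or RLE scaling (0.37 in each), the replicate block (0.32) or the filter of 1 CPM (0.33).

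Trim5 itself changed less. It had 5.94, 5.71, 5.75 and 5.95 CPM in uninfected and 11.4, 12.0, 10.1 and 13.2 CPM in exposed day 1 replicates, then 6.70, 5.59, 7.26 and 8.67 CPM in uninfected and 15.03, 16.01, 20.2 and 16.7 CPM in exposed day 5 replicates. Exposed libraries were higher in each case, with the smallest gap between uninfected day 5 replicate 4 and exposed day 1 replicate 3. On the log2 scale the change was 1.00 ± 0.13 (1.99-fold; edgeR adjusted p = 1.22e-05) at day 1 and 1.27 ± 0.12 (edgeR adjusted p = 6.05e-08) at day 5. Of its 50-base words, 36.3% occur in other genes, 23.5% in Trim12c, and how reads shared between such copies were assigned is not given in the sources used here.

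Trim6, a ligase known for unanchored ubiquitin chains that activate the kinase encoded by Ikbke, departed from its neighbours. Its mean was 18.5 ± 1.10 CPM (SD, n = 4) in uninfected and 29.5 ± 7.22 in exposed day 1 cells, and 25.4 ± 2.22 in uninfected and 20.4 ± 6.31 in exposed day 5 cells. It rose at day 1 by 0.67 ± 0.18 on the log2 scale (edgeR adjusted p = 0.0107). At day 5 the difference was -0.32 ± 0.18 (edgeR adjusted p = 0.137), with exposed libraries from 14.9 to 28.7 CPM around uninfected ones from 22.4 to 27.3 CPM. The effect was lower at day 5 than at day 1 by 0.99 (log2 difference -0.99 ± 0.25; edgeR adjusted p = 0.00518).

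Outside the cluster, 16 members with a PRY-SPRY domain included 6 that were higher and 1 lower at day 1 (13.4% and 10.5% of all genes), and 8 higher and 4 lower at day 5 (28.6% and 28.4% of all genes). Without Trim69, which entered through exposed libraries alone, 5 and 1 of 15 were higher and lower at day 1, and 7 and 4 at day 5. Trim21 encodes a cytosolic antibody receptor that sends antibody-coated pathogens to the proteasome. It had 6.70, 7.61, 7.42 and 8.16 CPM in uninfected and 27.1, 27.4, 21.99 and 31.6 CPM in exposed day 1 replicates, and 7.63, 6.98, 7.40 and 6.89 CPM in uninfected and 39.0, 65.3, 33.3 and 65.2 CPM in exposed day 5 replicates. Replicates 2 and 4 of exposed day 5 were highest, and even replicate 3 was above all day 1 libraries. Exposure changed it by a log2 fold change of 1.85 ± 0.18 (edgeR adjusted p = 1e-06) at day 1 and 2.81 ± 0.19 (edgeR adjusted p = 7.72e-10) at day 5, a difference of 0.96 ± 0.25 (edgeR adjusted p = 0.00647).

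Trim69, whose microtubule-associated product is known to restrict vesicular stomatitis virus, was scarce. It stood at 0.0377, 0.186, 0.145 and 0.127 CPM in uninfected and 0.678, 0.770, 0.437 and 1.07 CPM in exposed day 1 replicates. The day 5 levels were 0.102, 0.0776, 0.0127 and 0.199 CPM in uninfected and 1.40, 1.44, 2.30 and 2.41 CPM in exposed replicates. No exposed library was as low as any uninfected one, in a gene that had to be higher in exposed cells to enter. The fitted log2 fold change was 2.56 ± 0.47 (edgeR adjusted p = 0.000673) at day 1 and 4.28 ± 0.48 (edgeR adjusted p = 2.97e-07) at day 5, and the counts of 197 against 33 and 468 against 27 gave ratios of 5.85 (95% exact interval 4.03 to 8.73) and 19.5 (13.3 to 30.0). Its interaction was 1.72 ± 0.69 (edgeR adjusted p = 0.0594), and it passed the threshold without uninfected day 1 replicate 1 (2.05), exposed day 1 replicate 4 (1.93), uninfected day 5 replicate 4 (2.29), exposed day 5 replicate 1 (1.84) or exposed day 5 replicate 2 (1.83), with DESeq2 (1.77), with the replicate block (1.78) or with every gene of at least 1 read (1.75).

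Trim7, a ligase that recognises C-terminal glutamine, rose with exposure and with time. It had 1.97, 1.52, 2.41 and 1.95 CPM in uninfected and 3.06, 3.24, 3.27 and 5.41 CPM in exposed day 1 replicates, and 3.59, 4.47, 3.94 and 4.92 CPM in uninfected and 8.04, 10.0, 16.7 and 9.81 CPM in exposed day 5 replicates. Exposed day 1 replicate 4 and exposed day 5 replicate 3 stood above their groups, and uninfected day 5 overlapped exposed day 1. The log2 fold change was 0.93 ± 0.23 (edgeR adjusted p = 0.00602) at day 1 and 1.40 ± 0.22 (edgeR adjusted p = 1.82e-05) at day 5, and uninfected cells differed between days by 1.11 ± 0.23 (edgeR adjusted p = 0.00201).

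Trim25, the ligase known for activating the RNA sensor RIG-I, was abundant in every group. Its mean rose from 158 ± 2.15 CPM (SD, n = 4) in uninfected to 269 ± 20.3 in exposed day 1 cells (log2 fold change 0.77 ± 0.10, edgeR adjusted p = 2.2e-05) and from 217 ± 7.22 in uninfected to 426 ± 76.4 in exposed day 5 cells (0.97 ± 0.10, edgeR adjusted p = 1.44e-07). Trim14, a RING-less adapter of the mitochondrial antiviral protein Mavs, and Trim11 rose at day 1, by 0.38 ± 0.11 (edgeR adjusted p = 0.0127) and 0.44 ± 0.14 (edgeR adjusted p = 0.0306). They were not called at day 5, and the difference between days was -0.26 ± 0.15 (edgeR adjusted p = 0.183) and -0.25 ± 0.20 (edgeR adjusted p = 0.348). The Trim11 call was lost without any 1 of 5 day 1 libraries, uninfected replicates 1, 2 and 4 and exposed replicates 1 and 4 (adjusted p from 0.0504 to 0.124). Trim26 and Trim39 rose at day 5, by 0.82 ± 0.12 (edgeR adjusted p = 1.23e-05) and 0.63 ± 0.13 (edgeR adjusted p = 0.000278), with a difference between days of 0.56 ± 0.17 (edgeR adjusted p = 0.0155) and 0.42 ± 0.18 (edgeR adjusted p = 0.0705), and Trim41 and Trim62 were called at neither day.

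The exposure effect was higher at day 5 in 11 members, as in 16.4% of all genes tested, and lower in 7, as in 19.5%. Over the 38 members that pass on uninfected libraries alone, 10 were higher and 7 lower. The plot of both effects sets these members off the diagonal. The median interaction was 0.22 over the 42 members, which include those that entered through exposed libraries alone, and -0.04 over all genes tested. Besides Trim30a, Trim30d, Trim21 and Trim12c, the larger late effects belonged to Trim56, Trim72, Trim2, Trim35, Trim26, Trim44 and Trim33, and the lower ones to Trim16, Trim47, Trim59, Trim6, Trim65, Trim27 and Trim36.

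**Figure D3:**
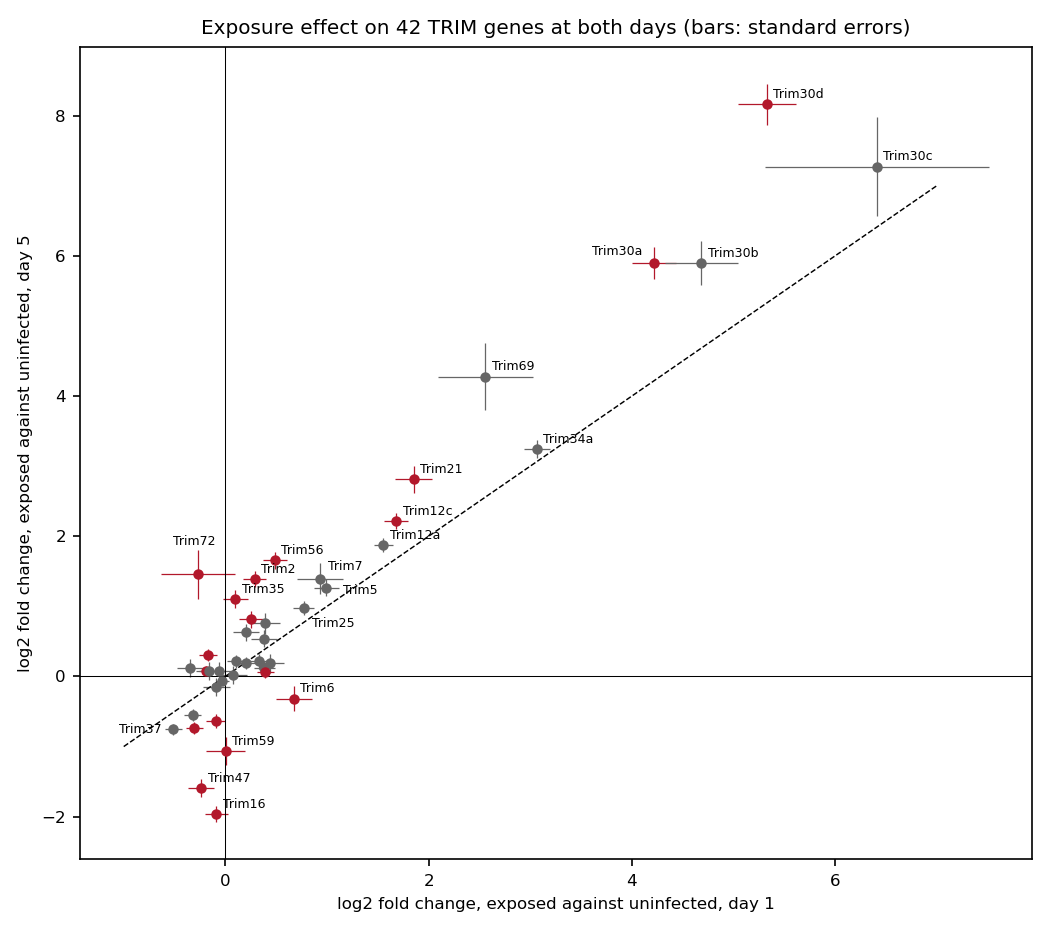
Log2 fold change of exposed against uninfected cells at day 1 (horizontal axis) and at day 5 (vertical axis) for the 42 TRIM genes, with standard errors as bars, the line of equal effects dashed, and the 18 members whose effect differed between days in red. Trim30d lies at 5.33 and 8.16, while Trim16 lies near 0 at day 1 and at -1.96 at day 5.

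Trim56 encodes a RING ligase without a classified C-terminal domain that is known in antiviral sensing. Its replicates had 30.6, 24.1, 29.9 and 32.3 CPM in uninfected and 42.6, 39.5, 34.4 and 47.3 CPM in exposed day 1 cells, and 24.7, 25.2, 26.6 and 29.3 CPM in uninfected and 65.7, 87.2, 81.6 and 98.7 CPM in exposed day 5 cells. A modest shift without overlap at day 1 became a wide one at day 5. The log2 fold change went from 0.49 ± 0.12 (edgeR adjusted p = 0.00636) to 1.65 ± 0.12 (edgeR adjusted p = 1.13e-09), a difference of 1.17 ± 0.17 (edgeR adjusted p = 3.56e-05).

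Trim2 and Trim35 responded at day 5. Trim2, an NHL-repeat ligase best known in neurons, had 7.89, 7.32, 6.02 and 6.64 CPM in uninfected and 7.88, 7.204, 8.98 and 10.2 CPM in exposed day 1 replicates. At day 5 it had 6.94, 7.39, 7.48 and 8.25 CPM in uninfected and 19.3, 20.6, 18.0 and 21.05 CPM in exposed replicates. The groups overlapped at day 1 and were well apart at day 5. The difference was 0.29 ± 0.11 on the log2 scale (edgeR adjusted p = 0.0681) at day 1, and it passed without exposed day 1 replicate 2 (0.36), under a filter of 1 CPM (0.31), with day 1 libraries fitted alone or with exposed day 5 reduced to replicates 1 and 4 (0.29 in each). At day 5 Trim2 rose by 1.39 ± 0.11 (edgeR adjusted p = 4.21e-09), with an interaction of 1.10 ± 0.16 (edgeR adjusted p = 3.35e-05). Trim35, a PRY-SPRY ligase known to act on Traf3, had 92.4, 94.5, 89.3 and 92.7 CPM in uninfected and 98.9, 101, 99.4 and 95.9 CPM in exposed day 1 replicates. Its day 5 levels were 84.5, 86.2, 83.8 and 80.2 CPM in uninfected and 159.6, 220.0, 123 and 216 CPM in exposed replicates. The exposed day 5 replicates were spread widely, with replicates 2 and 4 highest, and still did not overlap the uninfected ones. Exposure changed it by a log2 fold change of 0.10 ± 0.12 (edgeR adjusted p = 0.612) at day 1 and 1.10 ± 0.13 (edgeR adjusted p = 4.22e-07) at day 5, with an interaction of 1.00 ± 0.18 (edgeR adjusted p = 0.000234).

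Trim72, known from muscle as the membrane repair protein MG53, was low and variable. It had 1.41, 0.833, 1.57 and 1.27 CPM in uninfected and 0.981, 1.10, 0.656 and 1.501 CPM in exposed day 1 replicates, and 0.724, 1.06, 1.60 and 1.36 CPM in uninfected and 2.77, 1.35, 5.65 and 3.28 CPM in exposed day 5 replicates. Exposed day 5 replicate 2 lay within the uninfected range, while the other 3 were above it. The fitted log2 fold change was -0.27 ± 0.36 (edgeR adjusted p = 0.638) at day 1 and 1.46 ± 0.35 (edgeR adjusted p = 0.00177) at day 5, and the interaction was 1.72 ± 0.51 (edgeR adjusted p = 0.0127).

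Trim16, a RING-less protein known for directing autophagy to damaged lysosomes and phagosomes, had the largest fall of the 42 members. It stood at 17.6, 19.9, 17.3 and 19.0 CPM in uninfected and 17.2, 17.1, 17.7 and 17.3 CPM in exposed day 1 replicates. At day 5 it stood at 26.3, 26.5, 29.9 and 29.7 CPM in uninfected and 7.96, 6.22, 8.99 and 5.67 CPM in exposed replicates. The gene went up with time in uninfected cells and down in exposed ones, so that the day 5 groups were far apart. On the log2 scale the change was -0.09 ± 0.11 (edgeR adjusted p = 0.602) at day 1 and -1.96 ± 0.12 (edgeR adjusted p = 5.17e-11) at day 5, the interaction was -1.87 ± 0.16 (edgeR adjusted p = 8.54e-08), and uninfected cells rose between days by 0.61 ± 0.11 (edgeR adjusted p = 0.000786).

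Trim47 and Trim59 fell at day 5 as well. Trim47, a PRY-SPRY member, had 15.2, 15.2, 15.4 and 15.03 CPM in uninfected and 12.7, 12.4, 12.3 and 14.1 CPM in exposed day 1 replicates. For day 5 it showed 14.1, 17.3, 14.8 and 12.0 CPM in uninfected and 6.14, 3.64, 4.54 and 4.99 CPM in exposed replicates. Exposed libraries were below uninfected ones at both days, narrowly at day 1. The log2 fold change was -0.24 ± 0.13 (edgeR adjusted p = 0.186) at day 1, which passed when day 1 libraries were fitted alone (-0.23, adjusted p = 0.0102), and -1.59 ± 0.13 (edgeR adjusted p = 5.75e-09) at day 5, with an interaction of -1.36 ± 0.18 (edgeR adjusted p = 1.59e-05). Trim59, anchored in membranes, had 4.22, 5.18, 4.70 and 4.45 CPM in uninfected and 4.21, 5.32, 4.56 and 4.52 CPM in exposed day 1 replicates. Its day 5 values were 4.43, 4.31, 4.52 and 3.12 CPM in uninfected and 2.91, 1.62, 2.08 and 1.21 CPM in exposed replicates. The day 1 groups covered the same range, and at day 5 the highest exposed library was just below uninfected replicate 4. The difference was 0.01 ± 0.19 (edgeR adjusted p = 0.988) at day 1, with a sign that turned under RLE scaling (-0.03), and -1.06 ± 0.20 (edgeR adjusted p = 0.000154) at day 5, with an interaction of -1.07 ± 0.28 (edgeR adjusted p = 0.00561).

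**Figure D4:**
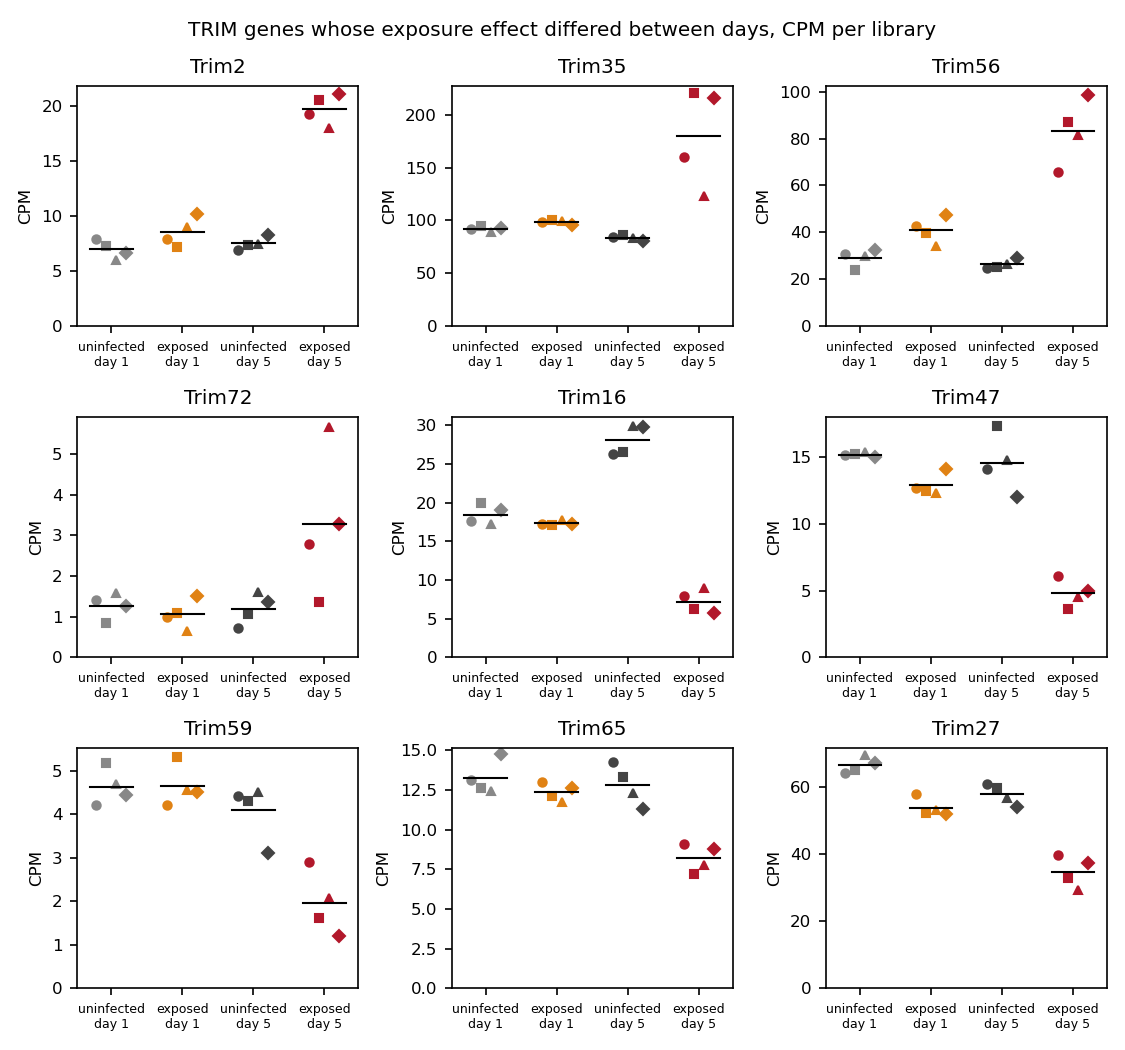
CPM of 9 TRIM genes whose exposure effect differed between days, in each library on linear axes from 0, with the 4 groups along the horizontal axis, symbols for replicates 1 to 4 (circle, square, triangle, diamond) and bars for group means. Trim2, Trim35, Trim56 and Trim72 are highest in exposed day 5 libraries, with 1 Trim72 replicate at 1.35 CPM among the uninfected, and the other 5 genes are lowest there.

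Trim65, the ligase known for the RNA sensor MDA5, fell at day 5 by 0.64 on the log2 scale (-0.64 ± 0.10; edgeR adjusted p = 1.64e-05), from 12.8 ± 1.29 CPM to 8.21 ± 0.874 CPM (SD, n = 4). It overlaps Trim47 on the same strand in the GENCODE annotation. The pair shares 3.05% of the 50-base words of Trim65 and 6.58% of those of Trim47, and reads of this shared part may not be separated. Trim27 was lower at both days, by -0.31 ± 0.08 (edgeR adjusted p = 0.0125) and -0.73 ± 0.08 (edgeR adjusted p = 4.51e-07), and the effect was stronger at day 5 (interaction -0.43 ± 0.12, edgeR adjusted p = 0.00826).

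Of the members with a PHD finger and a bromodomain, chromatin regulators rather than antiviral ligases, 3 were expressed. Among these 3, 2 were lower at day 1 (10.5% of all genes) and 1 at day 5 (28.4% of all genes). Trim28, the corepressor KAP1 that zinc-finger proteins recruit to silence endogenous retroviruses, had the highest level per kilobase of all members in uninfected day 1 cells. Its mean was 171 ± 1.58 CPM (SD, n = 4) in uninfected and 136 ± 3.22 in exposed day 1 cells (log2 fold change -0.32 ± 0.08, edgeR adjusted p = 0.00961), and 140.0 ± 12.5 in uninfected and 95.3 ± 11.1 in exposed day 5 cells (-0.56 ± 0.08, edgeR adjusted p = 1.53e-05). Trim33, a regulator of Smad signalling, was lower at day 1 by -0.19 ± 0.07 (edgeR adjusted p = 0.0498), a call that was lost without any 1 of 14 libraries, that is all but exposed day 5 replicates 2 and 3 (adjusted p from 0.0509 to 0.121). Its interaction of 0.28 ± 0.10 (edgeR adjusted p = 0.0353) was lost without any 1 of 11 libraries (adjusted p from 0.0531 to 0.0828). Trim24, a coregulator of nuclear receptors, was called at neither day, with means between 59.8 and 62.5 CPM in the 4 groups.

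The other classes held few expressed members. In the list of NHL-repeat genes Trim3 rose at both days, by 0.38 ± 0.13 (edgeR adjusted p = 0.0355) and 0.54 ± 0.13 (edgeR adjusted p = 0.00116), and the day 1 call was lost without any 1 of 5 day 1 libraries, uninfected replicates 1, 2 and 4 and exposed replicates 3 and 4 (adjusted p from 0.0549 to 0.148). Trim32 and Trim45 were called at neither day, and Trim45 stands in that list although it carries a filamin-type repeat. Trim13, a ligase of the endoplasmic reticulum membrane, rose at day 5 by 0.76 ± 0.15 (edgeR adjusted p = 0.000212). Its change at day 1 was 0.39 ± 0.15 (edgeR adjusted p = 0.0604), and the difference between days was 0.37 ± 0.21 (edgeR adjusted p = 0.182). Of the COS-box genes, which bind microtubules, Trim36 rose at day 1 by 0.39 ± 0.08 (edgeR adjusted p = 0.00247) and Trim46 was called at neither day. The Trim36 interaction of -0.32 ± 0.12 (edgeR adjusted p = 0.0408) was lost without any 1 of 11 libraries (adjusted p from 0.0525 to 0.0891).

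Members with another or no C-terminal domain went different ways. Trim37, with a MATH domain and a role at centrosomes, fell at day 1 by -0.51 ± 0.08 (edgeR adjusted p = 0.000164) and at day 5 by -0.75 ± 0.08 (edgeR adjusted p = 2.12e-07). Its means were 68.2 ± 2.08 and 47.9 ± 2.71 CPM at day 1 and 47.6 ± 3.18 and 28.2 ± 3.32 CPM at day 5 (SD, n = 4), so uninfected day 5 matched exposed day 1. Trim23, which carries an ARF GTPase domain, rose at day 1 by 0.33 ± 0.10 (edgeR adjusted p = 0.0281), a call lost without any 1 of 6 day 1 libraries, uninfected replicates 1, 3 and 4 and exposed replicates 2, 3 and 4 (adjusted p from 0.0548 to 0.0901). Its change at day 5 was 0.22 ± 0.10 (edgeR adjusted p = 0.0814), and the difference between days was -0.11 ± 0.15 (edgeR adjusted p = 0.597). Trim44, which lacks a RING, rose at day 5 by 0.31 ± 0.09 (edgeR adjusted p = 0.00594). Trim8 and Trim29 were called at neither day.

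Between uninfected days, 5 members were higher at day 5 (10.8% of all genes tested) and 3 lower (8.91%). The higher ones were Trim34a, Trim7, Trim16, Trim25 (0.46 ± 0.10, edgeR adjusted p = 0.00383) and Trim29 (0.46 ± 0.09, edgeR adjusted p = 0.00139). The lower ones were Trim37 (-0.52 ± 0.08, edgeR adjusted p = 0.000185), Trim28 (-0.28 ± 0.08, edgeR adjusted p = 0.0232) and Trim44 (-0.33 ± 0.09, edgeR adjusted p = 0.0141). The Trim28 call was lost without any 1 of 5 uninfected libraries, day 1 replicates 1, 3 and 4 and day 5 replicates 3 and 4 (adjusted p from 0.0502 to 0.102), and the Trim44 call without replicate 4 of either uninfected group (adjusted p from 0.0583 to 0.0662). The higher count became 8 without exposed day 5 replicate 2 or replicate 3, and the lower count ranged from 1, without replicate 4 of either uninfected group, to 5, without exposed day 5 replicate 3.

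Levels of different genes were set side by side per kilobase of exon. In uninfected day 1 cells the order was led by Trim28 with 41.0 CPM per kilobase, Trim29, a RING-less member known from airway macrophages, with 40.0, Trim25 with 27.4, Trim35 with 20.0 and Trim8 with 18.5, and Trim30a stood at rank 34 with 0.889. In exposed day 5 cells Trim30a was first with 74.5 CPM per kilobase, followed by Trim25 with 74.0, Trim29 with 62.9, Trim35 with 38.9, Trim30d with 34.8, Trim34a with 25.7 and Trim28 with 22.9. The first 2 places of that order differed by less than the spread between replicates. Trim28 moved from rank 1 to rank 7. Trim30d moved from rank 39 to rank 5, but it entered through exposed libraries alone, so a higher level there was a condition of entry.

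The replicates of the exposed groups tended to differ together in these genes. Of the 15 members at least 2-fold higher at day 5, 13 had their highest exposed day 1 level in replicate 4 and 12 their lowest in replicate 3. In exposed day 5 cells 10 of the 15 were lowest in replicate 1, and 7 were highest in replicate 4. The order was more mixed in uninfected cells, where replicate 4 was highest in 7 at day 1 and 6 at day 5. The lowest level fell most often in replicate 2 at day 1 (6) and replicate 4 at day 5 (5). Whether other genes share these orders was not tested.

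Genes that work with TRIM proteins were read from 4 lists. Of 3 TRIM proteins tested that go by other symbols, Pml, the organiser of nuclear bodies, rose at both days (0.57 ± 0.10, edgeR adjusted p = 0.000311, and 0.82 ± 0.10, edgeR adjusted p = 5.46e-07). Mid1, a microtubule-bound ligase, fell at both (-0.41 ± 0.15, edgeR adjusted p = 0.0453, and -1.51 ± 0.15, edgeR adjusted p = 6.57e-08). Mid2 rose at day 5 by 0.59 ± 0.20 (edgeR adjusted p = 0.0188).

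Of 23 genes of nucleic acid sensing and interferon signalling, 15 were higher and 1 lower at day 1, and 18 higher and 3 lower at day 5 (13.4%, 10.5%, 28.6% and 28.4% of all genes), with a median log2 fold change of 0.40 and 0.88. Irf7, the transcription factor that amplifies interferon output, rose from 1.504 to 86.6 CPM at day 1 (5.84 ± 0.33, edgeR adjusted p = 1.92e-09) and from 3.37 to 323 CPM at day 5 (6.57 ± 0.33, edgeR adjusted p = 5.51e-11). Ddx58, which encodes RIG-I, rose by 3.18 ± 0.15 (edgeR adjusted p = 2.68e-11) and 3.60 ± 0.15 (edgeR adjusted p = 1.01e-12). Dhx58, a regulator of that sensor, and Irf9, a subunit of the interferon-activated factor, rose by 3.20 ± 0.15 and 2.48 ± 0.11 at day 1 and by 2.84 ± 0.15 and 2.26 ± 0.10 at day 5.

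Ubiquitin and ISG15 conjugation genes were split. Of 16, 5 were higher and 1 lower at day 1 (13.4% and 10.5% of all genes), and 6 higher and 1 lower at day 5 (28.6% and 28.4% of all genes). The median log2 fold change was 0.20 and 0.16. In the ISG15 branch, the modifier Isg15 rose by 5.09 ± 0.32 and 6.28 ± 0.32, its activating enzyme Uba7 by 2.69 ± 0.16 and 3.36 ± 0.16, its conjugating enzyme Ube2l6 by 1.75 ± 0.14 and 2.95 ± 0.15, and its protease Usp18 by 7.53 ± 0.48 and 8.49 ± 0.46 (edgeR adjusted p at most 7.07e-08 at either day).

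Of 12 partners of Trim28 in gene silencing, 0 were higher and 2 lower at day 1 by edgeR, and 1 was higher and 6 lower at day 5, where 10.5% of all genes were lower at day 1 and 28.4% at day 5. Their median log2 fold change was -0.11 and -0.18. Cbx5, which encodes the heterochromatin protein HP1 alpha, fell at day 5 by -1.36 ± 0.16 (edgeR adjusted p = 6.57e-07), with -0.42 ± 0.16 at day 1 (edgeR adjusted p = 0.0556). Cbx3 fell by -0.36 ± 0.09 (edgeR adjusted p = 0.00884) and -0.996 ± 0.09 (edgeR adjusted p = 2.97e-08), and Pphln1, a subunit of the HUSH silencing complex, by -0.30 ± 0.06 (edgeR adjusted p = 0.0025) and -0.52 ± 0.07 (edgeR adjusted p = 1.23e-06). Cbx1 fell at day 5 by -0.35 ± 0.07 (edgeR adjusted p = 0.000154).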

How the data were processed

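RNA was sequenced from 16 libraries of MPI-2 cells, 4 in each of 4 groups. The authors deposited a table of raw counts per gene for each library, headed by versioned Ensembl identifiers per the file headers. STAR and the build GRCm39 are named in the submitters' processing notes, and how reads shared between gene copies were counted is not given in the sources used here. Symbols came from GENCODE M21, which named 52083 of 55359 genes. Genes without a symbol held 0.449% of counts.

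The counts were fitted with edgeR 4.0.16 in R 4.3.3 (TMM scaling, filterByExpr, quasi-likelihood test over all 4 groups), which left 17190 genes, and p-values were adjusted by the Benjamini-Hochberg method over all of them. CPM values use TMM-scaled totals. The interaction is the exposure effect at day 5 minus that at day 1. Ratios of summed counts carry exact 95% intervals, and 3 counts over a group equal 0.0104 to 0.0118 CPM. Totals of 46154875 to 81995629 counts and a common biological coefficient of variation of 0.149 set the precision. The fit was tested on simulated data. No pair of replicates agreed within sampling noise. Figures were drawn with matplotlib 3.10.9.

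The members and lists were chosen with earlier results of these data known. Any member could be named. Values of every library are given for the 18 members called with an absolute log2 fold change of at least 1 in an exposure comparison or in the interaction, and up to 4 genes with the smallest p per day from each list of related genes. Levels per kilobase use the union of GENCODE exons. Alternatives were DESeq2 1.42.0, RLE scaling, other filters and thresholds, fits on fewer libraries, a replicate block, and leaving out each library.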

Additional observations from a re-analysis of the deposited data

Results flagged for a closer look

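In 72 groups of 4 replicates of the members with all values given, 2 libraries stood apart from the rest of their group, where chance marks about 1 in 20 groups. Trim59 was at 3.12 CPM in uninfected day 5 replicate 4, and the other 3 replicates lay between 4.31 and 4.52 CPM. Trim7 was at 5.41 CPM in exposed day 1 replicate 4, against 3.06 to 3.27 CPM in the other 3.

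By edgeR's interaction term, 16.4% of all genes tested had a higher exposure effect at day 5 and 19.5% a lower one. The exposure effect differed between days by this term in 18 members. It was higher at day 5 for Trim30d (2.83), Trim72 (1.72), Trim30a (1.68), Trim56 (1.17), Trim2 (1.10), Trim35 (1.00), Trim21 (0.96), Trim26 (0.56), Trim12c (0.53), Trim44 (0.48) and Trim33 (0.28), all as log2 differences. It was lower for Trim16 (-1.87), Trim47 (-1.36), Trim59 (-1.07), Trim6 (-0.99), Trim65 (-0.54), Trim27 (-0.43) and Trim36 (-0.32). The smallest edgeR adjusted p was 8.54e-08, for Trim16, and the largest 0.0408, for Trim36.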

How the results depend on the processing

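Of 90 member results, 49 kept their direction and side of the threshold in up to 25 alternatives. Members higher at day 1 numbered 19, and 12 with replicates 1 and 2 alone or 9 with replicates 3 and 4 alone (16 to 21 with 1 library left out). Members lower at day 1 numbered 4, and 8 when day 1 libraries were fitted alone, 1 with replicates 1 and 2 and 0 with replicates 3 and 4 by edgeR (4 at an unadjusted p under 0.05), with a range of 3 to 4 with 1 library left out. The day 5 counts of 21 higher and 7 lower ranged from 21 to 24 and from 7 to 8 with 1 library left out. A higher effect at day 5 was called in 11 members, and in 5 or 3 with replicates 1 and 2 or 3 and 4 alone (10 to 14 with 1 library left out), and a lower one in 7, and in 2 with replicates 3 and 4 alone (6 to 8). Between uninfected days, 5 were higher, and 10 with those libraries fitted alone, 8 with exposed day 5 reduced to replicates 1 and 4, 2 with replicates 1 and 2 and 0 with replicates 3 and 4 by edgeR (8 unadjusted), with a range of 5 to 8, and 3 were lower, and 6, 5, 1 and 0 (3 unadjusted) under the same settings, with a range of 1 to 5. These subsets hold fewer samples. DESeq2 called 19 and 5, 23 and 7, 15 and 6, and 6 and 4. The sign turned for Trim2 at day 1 with replicates 1 and 2 alone (-0.0130). It also turned for Trim59 at day 1 with DESeq2 and RLE scaling (-0.0255 in each), with genes of at least 1 read (-0.0202), with replicates 3 and 4 alone (-0.0115), and without uninfected day 1 replicate 1 (-0.0394), uninfected day 1 replicate 4 (-0.0148) or exposed day 1 replicate 2 (-0.0669; range with 1 library left out -0.0669 to 0.0628), and the cause was not tested. With replicate number as a replicate block, 20 members were higher and 3 lower at day 1, 21 and 7 at day 5, 13 and 6 in the interaction, and 5 and 3 between uninfected days. Same-numbered libraries did not deviate together (r from -0.151 to 0.148), and 3 of 16 libraries correlated best with their own number. Without exposed day 5 replicates 2 and 3, the Trim36 interaction was not called (-0.27, adjusted p = 0.0936). The block lost Trim33 at day 1 (adjusted p = 0.0545) and the Trim36 interaction (adjusted p = 0.0604). The threshold on uninfected libraries alone was chosen after seeing the data. Depth limits Trim30b, Trim30c and Trim69, whose lowest uninfected group held 16, 3 and 27 counts.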
